A study of Mus musculus with 6 samples.

Results

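Semaphorins, plexins, neuropilins, ephrins and Eph receptors were followed across the 3 groups of an RNA sequencing study of Neuro-2a cells, which come from a mouse neuroblastoma and can extend neurites. The genes were taken by symbol (Sema3 to Sema7, Plxna to Plxnd, Nrp1 and Nrp2, Epha and Ephb, Efna and Efnb), which gave 53 of the 21878 rows of the deposited table. Of these, 25 had a mean of at least 1 FPKM (fragments scaled by transcript length and by library total) over the 6 libraries and were tested among 10721 such rows. The groups were cells overexpressing the long noncoding RNA lncPim1, cells in which lncPim1 was lowered by RNA interference, here called knockdown cells, and control cells labelled wild type, with 2 libraries each. No empty vector or scrambled RNA is named for the controls. Separate cultures are not stated either, so p-values reflect the spread between these libraries alone, and that spread may be technical. With 2 libraries a group, and in bulk RNA, fewer cells of a kind and less RNA per cell cannot be told apart.

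The targeted RNA gives no check of the labels: lncPim1 names 0 rows and was not analysed here. Summed FPKM was 294510 and 303139 under overexpression, 277508 and 272528 under knockdown, and 298032 and 305463 in control cells. Both knockdown libraries thus lay below all the others. Spearman correlations over tested rows were 0.995 to 0.997 within groups, 0.992 to 0.994 between overexpression and control libraries, and 0.976 to 0.984 between knockdown libraries and the rest. Of 16 genes listed for neuroblastoma and the sympathetic lineage, 11 had a mean of at least 1 FPKM, among them Hand2 and Tubb3. Dbh, Chat and Nefl stood under 1 FPKM in each library. The summed FPKM of the 16 was 1408 and 1518 under overexpression, 1259 and 1273 under knockdown, and 1565 and 1548 in control cells. Most of each sum came from Uchl1 and Tubb3. Tubb3 was lower under knockdown, at 246 and 253 FPKM against 397 and 388 FPKM in control cells. Uchl1 was not lower, at 547 and 543 FPKM against 524 and 538 FPKM. Th was higher, at 11.9 and 9.32 FPKM against 4.99 and 4.67 FPKM, so these genes did not move together. Markers of endothelium, where neuropilins and plexin-D1 are best known outside the nervous system, summed to 4.07 and 3.74 FPKM under overexpression, 4.65 and 3.87 FPKM under knockdown, and 3.44 and 3.61 FPKM in control cells. Of these 8 genes, Pecam1 and Esam stood above 1 FPKM in each library, Cldn5 was listed at 0 in all 6 libraries, and Kdr at 0 in 5.

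Semaphorins are secreted or membrane-bound cues that steer growing axons, mostly by repulsion. Plexins are their signalling receptors, and class 3 semaphorins bind neuropilins, which pass the signal on through A-type plexins. Ephrins are membrane-bound ligands of the Eph receptor tyrosine kinases, A ephrins through a lipid anchor and B ephrins as transmembrane proteins, and contact between ligand and receptor on neighbouring cells makes growth cones turn or collapse. In the sympathetic lineage, from which neuroblastoma arises, semaphorin signalling through neuropilins guides neural crest cells and their axons.

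Receptors of the semaphorin arm were the most abundant members. Plxna1, which encodes a partner of neuropilins, led with a mean of 24.5 FPKM over the 6 libraries, followed by Plxnb2, a receptor of class 4 semaphorins, at 21.2 FPKM. Nrp1, the receptor of Sema3A, averaged 16.0 FPKM and Nrp2, the receptor of Sema3F and Sema3G, 11.9 FPKM. The leading ligand was Sema4d, which binds plexin-B1, at 14.3 FPKM, while Plxnb1 itself stood at 1.09 FPKM, the lowest of the 25 tested members. Sema4c, a ligand of plexin-B2, averaged 11.2 FPKM, and Efna5 was the highest ephrin at 11.05 FPKM.

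Eph receptors were nearly absent by comparison. Of 14 Eph receptor genes only Epha10 and Ephb3 reached a mean of 1 FPKM, at 1.57 and 1.18 FPKM, and Epha3, Epha4 and Ephb6 were listed at 0 in all 6 libraries. All 14 together summed to 3.70 and 4.74 FPKM under overexpression, 5.07 and 4.73 FPKM under knockdown, and 4.15 and 3.57 FPKM in control cells. Ephrins summed to more in each library, at 18.9 and 18.4 FPKM under overexpression, 18.6 and 18.2 FPKM under knockdown, and 21.5 and 20.1 FPKM in control cells, most of it Efna5 and Efna2. Among the class 3 semaphorins, only Sema3f and Sema3g were tested, and Sema3a, Sema3c, Sema3d and Sema3e, which lie on chromosome 5, stood below 0.04 FPKM in each library. Of the 28 members under the limit, 4 were listed at 0 in all 6 libraries, 14 had a mean above 0 but under 0.1 FPKM, and 10 had a mean of at least 0.1 FPKM. Just inside the limit lay Plxnb1 and Ephb3, and just outside it Sema4g at 0.975 and Sema6c at 0.844 FPKM.

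**Figure D1:**
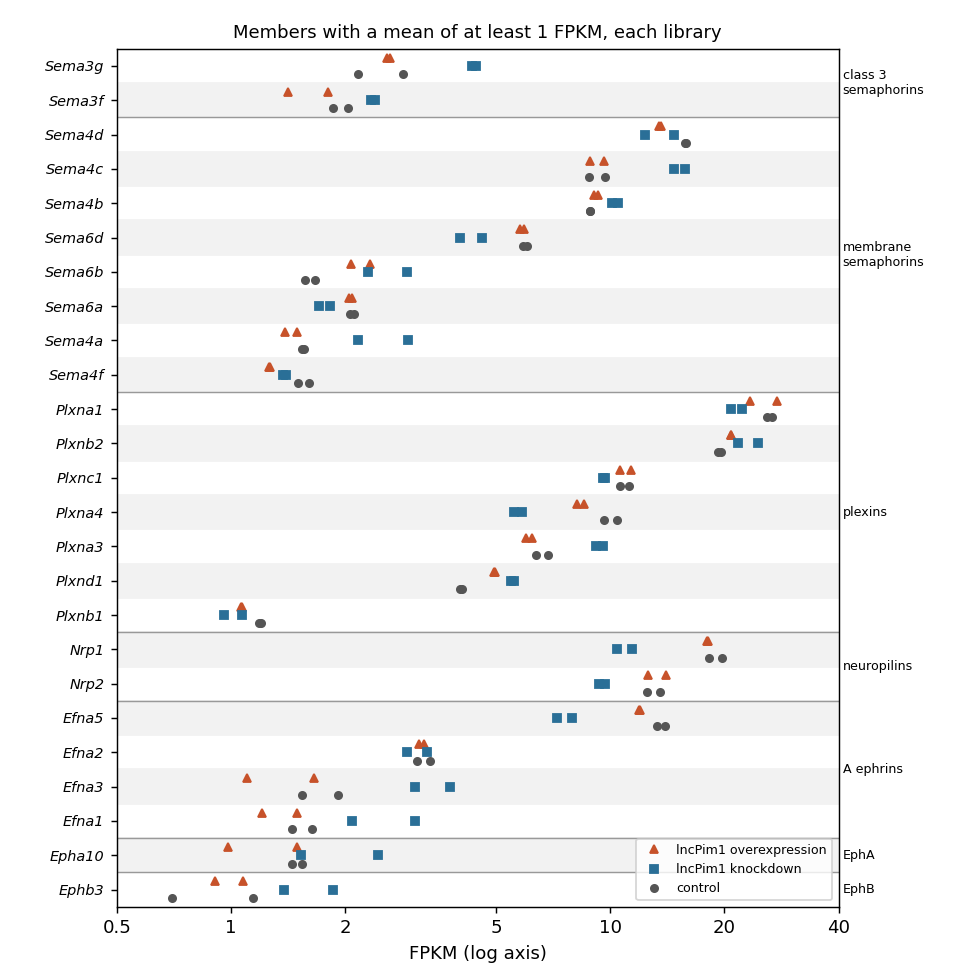
FPKM of the 25 tested members in each of the 6 libraries, on a log axis and ordered by class, with triangles for overexpression, squares for knockdown and circles for control. Overexpression and control points lie close together for most members, and the knockdown points of Nrp1, Plxna4 and Efna5 lie to the left of both, those of Sema4c, Sema3g and Plxna3 to the right.

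Summed by class, neuropilin and semaphorin levels of knockdown cells stood apart from both other groups, in opposite directions. Neuropilins summed to 32.1 and 30.7 FPKM under overexpression, 19.7 and 21.1 FPKM under knockdown, and 32.2 and 31.8 FPKM in control cells. The 20 semaphorin genes summed to 51.1 and 51.5 FPKM under overexpression, 63.3 and 59.5 FPKM under knockdown, and 53.0 and 54.3 FPKM in control cells. Sema4c alone had 15.8 and 14.7 FPKM under knockdown against 8.78 and 9.69 FPKM in control cells, so much of this difference lay in 1 gene. Plexins summed to 80.1 and 75.6 FPKM under overexpression, 76.8 and 75.2 FPKM under knockdown, and 78.3 and 78.7 FPKM in control cells. The plexin sum of knockdown cells overlapped that of overexpressing cells and lay just under that of control cells, although single plexins moved up and down. These sums were not tested.

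**Figure D2:**
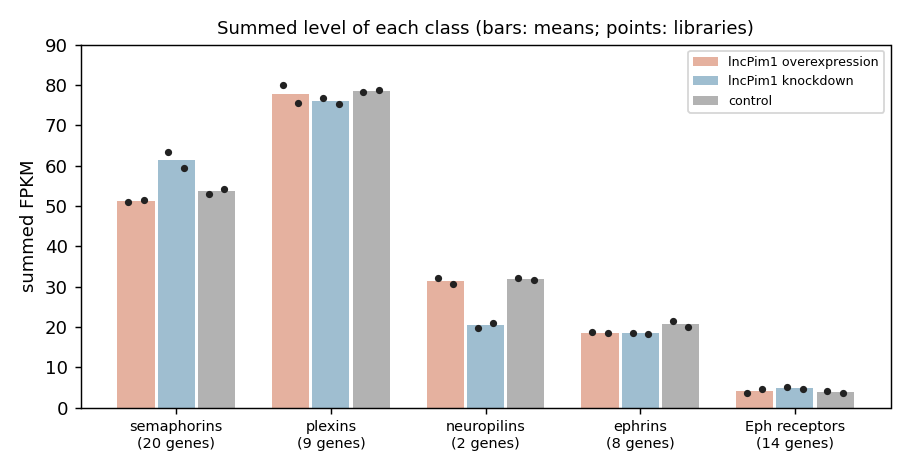
Summed FPKM of semaphorins, plexins, neuropilins, ephrins and Eph receptors by group, with bars for the mean of 2 libraries and points for the libraries. The neuropilin sum is lower under knockdown, at 19.7 and 21.1 FPKM, and the semaphorin sum higher, at 63.3 and 59.5 FPKM.

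Knockdown cells were set against control cells to ask which guidance genes differed when lncPim1 was lowered. Of the 25 tested members, 18 were called by limma at a Benjamini-Hochberg adjusted p under 0.05, 11 higher and 7 lower, or 44% and 28% of those tested. Among the 11, Ephb3 passed the filter only through its knockdown mean of 1.62 FPKM, with 0.993 FPKM under overexpression and 0.922 FPKM in control cells. With no filter on low values, 12 of 49 members were higher and 6 lower, beside 10.8% and 17.5% of 17311 rows. Over all tested rows 46.2% were called, 14.8% higher and 31.3% lower. The median log2 fold change, on the log2(FPKM + 1) scale used throughout, was 0.19 over the tested members and -0.07 over all tested rows. After median log ratio scaling, 2158 of all rows were higher and 2420 lower, against 1590 and 3358 without it, and 11 members were higher and 5 lower. With a filter at 5 FPKM, 4 of 12 tested members were higher and 8 lower, and of 7499 rows 942 were higher and 2959 lower. The median level was 3.16 FPKM for members called higher and 11.9 FPKM for those called lower. Without control 2, 7 members were called higher. The libraries of the groups did not overlap in 23 of the 25 tested members and in 74.4% of all tested rows.

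The neuropilins fell together under knockdown. Nrp1 had 10.4 and 11.4 FPKM in knockdown cells, against 19.7 and 18.2 FPKM in control cells, a log2 fold change of -0.75 ± 0.06 (SE; limma, adjusted p = 0.000136). Nrp2 had 9.31 and 9.68 FPKM in knockdown cells, against 12.5 and 13.5 FPKM in control cells, a log2 fold change of -0.42 ± 0.07 (limma, adjusted p = 0.0019). In neither gene did the groups overlap. Gipc1, which encodes a PDZ adaptor that binds the tail of neuropilin-1, also fell, with 23.1 and 23.8 FPKM in knockdown cells and 32.1 and 31.6 FPKM in control cells (log2 fold change -0.43 ± 0.05; limma, adjusted p = 0.00039).

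The 4 A-type plexin genes did not move as a block. Plxna4, whose product pairs with neuropilin-1 in Sema3A signalling, had 5.58 and 5.84 FPKM in knockdown cells, against 10.4 and 9.60 FPKM in control cells, and fell by 0.71 ± 0.07 on the log2 scale (limma, adjusted p = 0.000167). Plxna3, whose product pairs with neuropilin-2 in Sema3F signalling, rose instead, with 9.55 and 9.18 FPKM in knockdown cells against 6.84 and 6.38 FPKM in control cells (log2 fold change 0.45 ± 0.06; limma, adjusted p = 0.000886). The pair therefore crossed over in level: Plxna4 was the higher of them in each control and overexpression library, and Plxna3 in each knockdown library. Plxna1 fell by 0.27 ± 0.08 (limma, adjusted p = 0.0187), a call lost with median log ratio scaling, with quantile normalization, with no filter on low values and without control 1, control 2 or knockdown 1 (limma, adjusted p = 0.0578 to 0.169). Plxna2 was not tested, with at most 0.00406 FPKM in a library.

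Among the other plexins, Plxnd1, the receptor of Sema3E, had 5.58 and 5.48 FPKM in knockdown cells against 4.07 and 4.01 FPKM in control cells, a log2 fold change of 0.37 ± 0.06 (limma, adjusted p = 0.00202). Plxnb2 rose by 0.24 ± 0.06 (limma, adjusted p = 0.014), with 24.6 and 21.8 FPKM in knockdown cells against 19.3 and 19.6 FPKM in control cells, and its call was lost without control 1, control 2 or knockdown 1 (limma, adjusted p = 0.0551 to 0.0751). Plxnc1, the receptor of Sema7A, and Plxnb1 were not called, at log2 fold changes of -0.16 ± 0.06 and -0.12 ± 0.09 (limma, adjusted p = 0.0513 and 0.294).

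Of the 10 tested semaphorins, 5 were called higher under knockdown, 2 lower and 3 were not called, beside 14.8% higher and 31.3% lower of all tested rows. Sema4c had 15.8 and 14.7 FPKM in knockdown cells, against 8.78 and 9.69 FPKM in control cells, a log2 fold change of 0.67 ± 0.07 (limma, adjusted p = 0.000254). Sema3g, a secreted ligand that acts through neuropilin-2, had 4.32 and 4.42 FPKM in knockdown cells against 2.16 and 2.84 FPKM in control cells (log2 fold change 0.62 ± 0.10; limma, adjusted p = 0.00137). The knockdown libraries lay above the control libraries in both genes. Sema4a (0.47 ± 0.11), Sema6b (0.46 ± 0.10) and Sema4b (0.20 ± 0.06) rose as well (limma, adjusted p = 0.00893, 0.0068 and 0.0211). The call of Sema4a was lost (limma, adjusted p = 0.0537) without knockdown 1, whose value of 2.93 FPKM was above the 2.16 FPKM of knockdown 2, and that of Sema4b was lost without control 1, control 2 or knockdown 2 (limma, adjusted p = 0.0842 to 0.0881).

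Of the semaphorins that fell under knockdown, Sema6d, a transmembrane ligand of plexin-A1, had 4.01 and 4.60 FPKM in knockdown cells against 6.03 and 5.87 FPKM in control cells (log2 fold change -0.39 ± 0.07; limma, adjusted p = 0.00312). Sema4d was called lower only narrowly, at -0.21 ± 0.08 (limma, adjusted p = 0.0482). Its knockdown libraries differed, at 14.7 and 12.3 FPKM, and its call held in 4 of 15 alternative fits. Without knockdown 2 the log2 fold change was -0.0951 (limma, adjusted p = 0.263), and without control 1 or control 2 the call was lost as well. Sema3f, Sema4f and Sema6a were not called, at log2 fold changes of 0.19 ± 0.10, -0.10 ± 0.09 and -0.16 ± 0.08.

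A ephrins moved apart from each other. Efna5, a repellent of retinal and cortical axons, had 7.22 and 7.93 FPKM in knockdown cells, against 14.0 and 13.3 FPKM in control cells, a log2 fold change of -0.77 ± 0.06 (limma, adjusted p = 0.000122), the largest fall among the 25. Efna3 had 3.79 and 3.06 FPKM in knockdown cells, against 1.92 and 1.54 FPKM in control cells, a log2 fold change of 0.70 ± 0.14 (limma, adjusted p = 0.00359), the largest rise. Efna1 had 3.05 and 2.08 FPKM in knockdown cells against 1.63 and 1.44 FPKM in control cells (0.48 ± 0.13; limma, adjusted p = 0.0183). The Efna1 call was lost with no filter on low values and without control 1, control 2 or knockdown 1 (limma, adjusted p = 0.0504 to 0.112), while that of Efna3 held in each fit. Efna1 and Efna3 are neighbours on chromosome 3, 32756 bases apart on the minus strand of build GRCm38, and Efna4 follows after 10424 bases. Efna4 stood at 0.193 and 0.331 FPKM in knockdown cells and at 0.229 and 0.235 FPKM in control cells, so its groups overlapped. Efna2 was not called, at -0.04 ± 0.08. Exons of Efna3 share 344 bases with Gm15998 on the opposite strand, those of Sema4c 334 bases with D430040D24Rik and those of Plxna4 110 bases with Plxna4os3, and whether counting used the strand is not known.

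Of the Eph receptors, Ephb3 had 1.38 and 1.86 FPKM in knockdown cells against 1.14 and 0.7004 FPKM in control cells (0.45 ± 0.14; limma, adjusted p = 0.0261). It passed the filter through its knockdown level, since its mean was 0.993 FPKM under overexpression and 0.922 FPKM in control cells, and its call was lost with quantile normalization, with no filter and without control 2 or knockdown 2 (limma, adjusted p = 0.0753 to 0.174). Epha10 was not called, with 2.44 and 1.53 FPKM in knockdown cells against 1.54 and 1.45 FPKM in control cells.

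Markers of digestive tract and pancreas also differed in level. The 16 genes of that list, 14 of them at a mean of at least 1 FPKM, summed to 55.9 and 68.7 FPKM under overexpression, 25.8 and 26.4 FPKM under knockdown, and 63.0 and 58.7 FPKM in control cells. In both knockdown libraries 9 of them were listed at 0, among them Reg1, Fabp1, Zg16 and Reg3b. Reg3b was also low under overexpression, at 0.0677 and 0.310 FPKM against 3.37 and 2.32 FPKM in control cells. Cela1 made up most of the knockdown sum, with 20.3 and 20.6 FPKM in knockdown cells against 23.2 and 25.9 FPKM in control cells. Their part in the results above was not tested.

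Promoters are shown for the largest rises among tested members under knockdown, Efna3 and Sema4c, and the largest falls, Efna5 and Nrp1. No RefSeq window was found for Plxna4, which fell by 0.71 on the log2 scale. Each window runs from 250 bases before to 50 bases after the gene's start in RefSeq on build GRCm38.p6, 5′ to 3′ on the strand of the gene, and capitals mark a match to AP-1 (TGANTCA), EGR (GCGTGGGCG or GCGGGGGCG) or the E-box (CACGTG), searched on both strands.
Sema4c, higher under knockdown, chr1:36558332-36558631, minus strand: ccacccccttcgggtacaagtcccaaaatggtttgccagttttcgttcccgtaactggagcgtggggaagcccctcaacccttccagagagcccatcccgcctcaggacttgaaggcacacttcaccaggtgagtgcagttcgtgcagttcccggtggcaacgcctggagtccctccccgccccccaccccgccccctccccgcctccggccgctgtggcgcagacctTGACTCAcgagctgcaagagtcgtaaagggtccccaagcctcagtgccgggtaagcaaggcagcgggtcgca
Efna3, higher under knockdown, chr3:89322890-89323189, minus strand: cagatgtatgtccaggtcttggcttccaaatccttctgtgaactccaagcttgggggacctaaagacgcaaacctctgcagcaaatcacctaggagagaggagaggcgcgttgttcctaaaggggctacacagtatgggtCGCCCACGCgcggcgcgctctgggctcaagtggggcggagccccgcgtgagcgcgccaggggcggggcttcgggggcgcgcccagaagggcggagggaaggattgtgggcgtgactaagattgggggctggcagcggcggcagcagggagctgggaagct
Nrp1, lower under knockdown, chr8:128358823-128359122, plus strand: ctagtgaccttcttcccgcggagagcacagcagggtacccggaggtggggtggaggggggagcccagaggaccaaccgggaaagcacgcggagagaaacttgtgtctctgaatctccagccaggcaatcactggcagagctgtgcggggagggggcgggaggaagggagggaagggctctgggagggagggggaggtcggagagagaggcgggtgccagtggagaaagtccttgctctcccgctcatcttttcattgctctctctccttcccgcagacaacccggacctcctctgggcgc
Efna5, lower under knockdown, chr17:62881268-62881567, minus strand: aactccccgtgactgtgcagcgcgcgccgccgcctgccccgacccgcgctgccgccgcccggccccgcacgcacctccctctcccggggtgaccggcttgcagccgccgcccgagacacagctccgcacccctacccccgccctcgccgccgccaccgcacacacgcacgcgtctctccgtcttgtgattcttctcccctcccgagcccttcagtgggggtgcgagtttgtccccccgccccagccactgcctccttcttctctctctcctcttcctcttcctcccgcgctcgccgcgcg

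Sema4c and Efna3 have 2 windows each, of which the one farther upstream is printed, and the others hold none of the 3 motifs. The printed Sema4c window holds an AP-1 match that begins 22 bases before the start, and the printed Efna3 window an EGR match, on the opposite strand, that begins 110 bases before it. The Nrp1 and Efna5 windows hold none of the 3 motifs. RefSeq windows were found for 47 of the 53 members, 61 windows in all, since some genes have several starts. An EGR match was found in 8 of these 61 windows and in 3.47% of all 32851 windows, an AP-1 match in 3 windows and in 7.81% of all, and an E-box in 4 windows and in 7.15% of all. Member windows were richer in G and C, with a median of 64% against 52.7% over all windows, and the EGR motif is itself made of G and C almost throughout. Whether base composition bears on the EGR count was not tested. Among genes called under knockdown that had a window, 11 were higher, with 20 windows, and 5 were lower, with 8. Windows of the higher genes had a median of 64.2% G and C, and those of the lower genes 55.2%. These medians are over windows and not over genes. Among the lower genes, Sema4d and Sema6d have several windows each, at 46.7% to 56% G and C. The windows of Nrp1, Nrp2 and Efna5 stood at 64%, 70.7% and 73.3%. An EGR match was found for 3 of the higher and 0 of the lower genes, an AP-1 match for 2 and 1, and an E-box for 1 and 1. These counts were not tested. A match is a description of the letters and not a binding site.

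Of the 28 members under 1 FPKM, 24 entered a fit without the filter on low values, and 4 of them were called in it for knockdown against control, 3 higher and 1 lower. Over all 17311 rows of that fit, 10.8% were called higher and 17.5% lower. The 4 are named because they were called, which was decided after their values were seen. Efnb3, a transmembrane ephrin of midline axon guidance, had 0.910 and 1.01 FPKM in knockdown cells, against 0.245 and 0.263 FPKM in control cells (log2 fold change 0.64 ± 0.04; limma, adjusted p = 0.00272). Efnb2, a transmembrane ephrin of vessels and growth cones, had 0.515 and 0.542 FPKM in knockdown cells, against 0.198 and 0.271 FPKM in control cells. Its receptor gene Ephb4 had 0.863 and 0.728 FPKM in knockdown cells, against 0.473 and 0.446 FPKM in control cells, and 33 exonic bases of Ephb4 overlap the gene Zan on the opposite strand. The knockdown libraries were above the control libraries in all 3 genes, and the call of Ephb4 was lost without control 1 or control 2 (limma, adjusted p = 0.076 and 0.0842). Epha8 was lower in knockdown cells, at 0.228 and 0.381 FPKM against 0.823 and 0.895 FPKM in control cells (log2 fold change -0.51 ± 0.10; limma, adjusted p = 0.0186), and its call was lost without control 1, control 2, knockdown 1 or knockdown 2 (limma, adjusted p = 0.0652 to 0.119). The knockdown libraries of Sema4g, at 1.28 and 1.149 FPKM, and of Sema6c, at 1.01 and 1.10 FPKM, also lay above the other 4 libraries, without being called. At these levels the values rest on few fragments, and the number of fragments is not known.

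**Figure D3:**
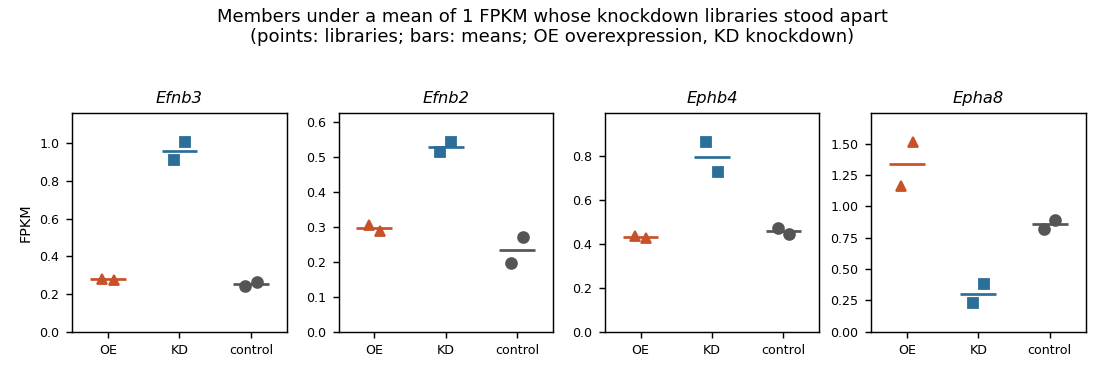
FPKM of Efnb3, Efnb2, Ephb4 and Epha8 in each library, with points for libraries and bars for means. The knockdown points of Efnb3, Efnb2 and Ephb4 lie above those of both other groups, and those of Epha8 lie below, with the overexpression points of Epha8, at 1.17 and 1.51 FPKM, above the control points.

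Overexpressing cells were set against control cells to ask what added lncPim1 changed. None of the 25 tested members was called by limma (0 higher and 0 lower), and over all tested rows 1.54% were called, 0.69% higher and 0.849% lower. An unadjusted p under 0.05 was found for 5 members, and no share of all tested rows at that level is given here to set beside it. The largest differences were in Sema6b, with 2.33 and 2.07 FPKM under overexpression and 1.66 and 1.56 FPKM in control cells (log2 fold change 0.29 ± 0.10; limma, adjusted p = 0.197), and Plxnd1, with 4.96 and 4.93 FPKM under overexpression and 4.07 and 4.01 FPKM in control cells (0.24 ± 0.06; limma, adjusted p = 0.114). Plxna4 had 8.15 and 8.52 FPKM under overexpression and 10.4 and 9.60 FPKM in control cells (-0.24 ± 0.07; limma, adjusted p = 0.121). Sema4d (-0.21 ± 0.08) and Efna5 (-0.17 ± 0.06) were the remaining members with an unadjusted p under 0.05. The libraries of the groups did not overlap in these 5 genes, as in 13 of the 25 tested members and 49.5% of all tested rows. Sema4c was closest to the controls, with 8.85 and 9.63 FPKM under overexpression against 8.78 and 9.69 FPKM in control cells. The comparison with knockdown shares these control libraries, and in it Plxnd1 and Sema6b were called higher and Plxna4, Sema4d and Efna5 lower.

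**Figure D4:**
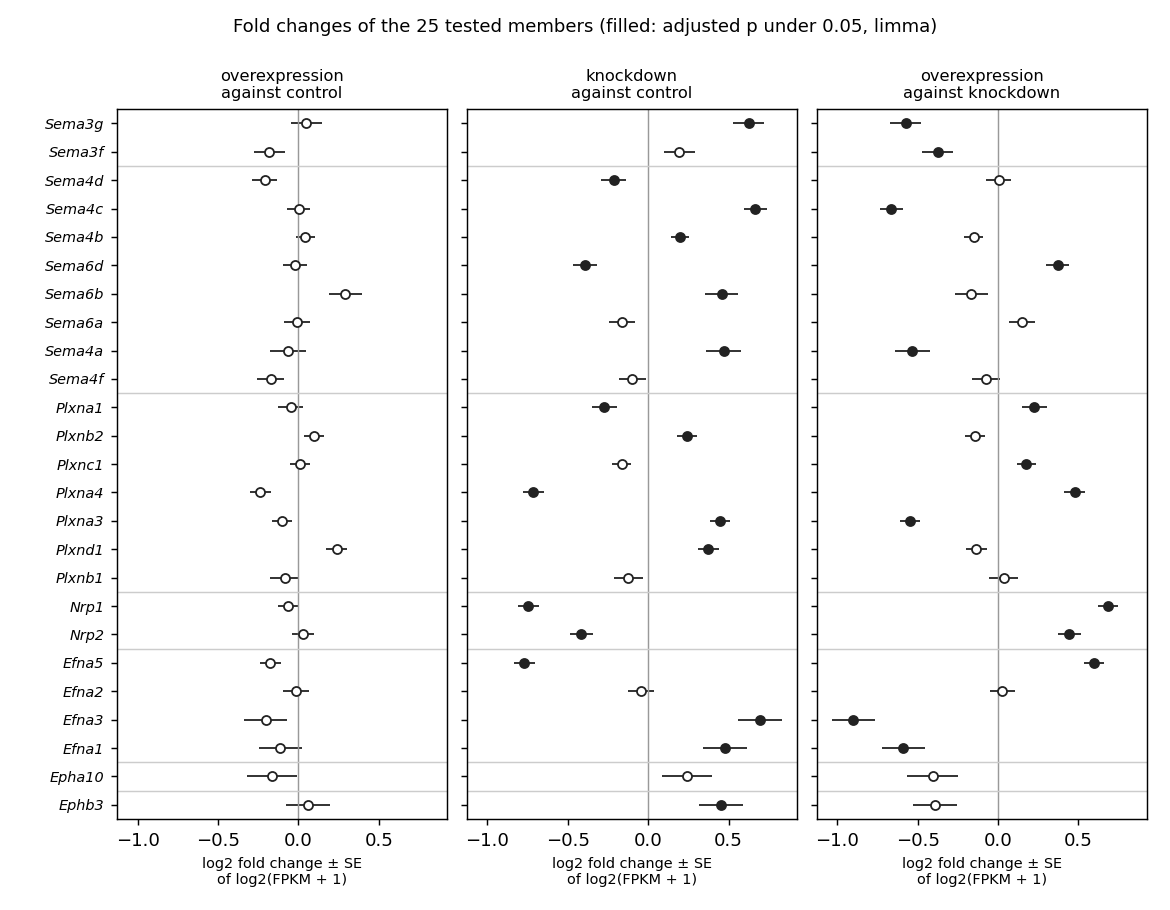
Log2 fold changes with their SE for the 25 tested members in the 3 comparisons, on the log2(FPKM + 1) scale, with filled points for an adjusted p under 0.05 by limma. No point is filled for overexpression against control, 18 are filled for knockdown against control and 14 for overexpression against knockdown.

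Overexpressing cells were then compared with knockdown cells, the manipulations of lncPim1 in opposite directions. Of 25 tested members 14 were called, 7 higher and 7 lower under overexpression, while 40.5% of all tested rows were called, 28.1% higher and 12.4% lower. With median log ratio scaling, 2062 of all rows were higher and 1823 lower, against 3013 and 1332 without it. The groups did not overlap in 21 of the 25 tested members and in 71.9% of all tested rows. Nrp1 had 18.0 and 18.1 FPKM under overexpression, against 10.4 and 11.4 FPKM under knockdown, a log2 fold change of 0.68 ± 0.06 (limma, adjusted p = 0.000336). Efna5 had 12.005 and 11.9 FPKM under overexpression, against 7.22 and 7.93 FPKM under knockdown (0.60 ± 0.06; limma, adjusted p = 0.000463). Nrp2 (0.44 ± 0.07), Plxna4 (0.48 ± 0.07) and Sema6d (0.37 ± 0.07) were higher under overexpression in each alternative fit.

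Members lower under overexpression than under knockdown were led by Efna3, with 1.66 and 1.10 FPKM under overexpression against 3.79 and 3.06 FPKM under knockdown (log2 fold change -0.90 ± 0.14; limma, adjusted p = 0.00156). Sema4c (-0.66 ± 0.07), Sema3g (-0.57 ± 0.10), Plxna3 (-0.55 ± 0.06), Sema4a (-0.53 ± 0.11), Efna1 (-0.59 ± 0.13) and Sema3f (-0.37 ± 0.10) were lower too. Sema3f, with 1.80 and 1.41 FPKM under overexpression, 2.40 and 2.34 FPKM under knockdown and 1.85 and 2.04 FPKM in control cells, was called here and not in either comparison with control, and its call was lost without overexpression 2 or knockdown 1 (limma, adjusted p = 0.0973 and 0.0659). The call of Efna1 was lost without overexpression 1 (limma, adjusted p = 0.0527). Plxna1 (0.23 ± 0.08; limma, adjusted p = 0.0443) and Plxnc1 (0.18 ± 0.06; limma, adjusted p = 0.0456) were called higher only narrowly. The call of Plxna1 held in 4 of 15 alternative fits and that of Plxnc1 in 3 of 15. Median log ratio scaling was 1 of the fits that ended both calls, and it raised the number of members called lower to 11. In all, 12 members were called in knockdown cells against both other groups, 6 of them higher in knockdown (Efna1, Efna3, Plxna3, Sema3g, Sema4a and Sema4c) and 6 lower (Efna5, Nrp1, Nrp2, Plxna1, Plxna4 and Sema6d), or 24% each. Of all tested rows, 9.78% were called higher in knockdown against both and 23.4% lower, and the knockdown libraries enter both comparisons.

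**Figure D5:**
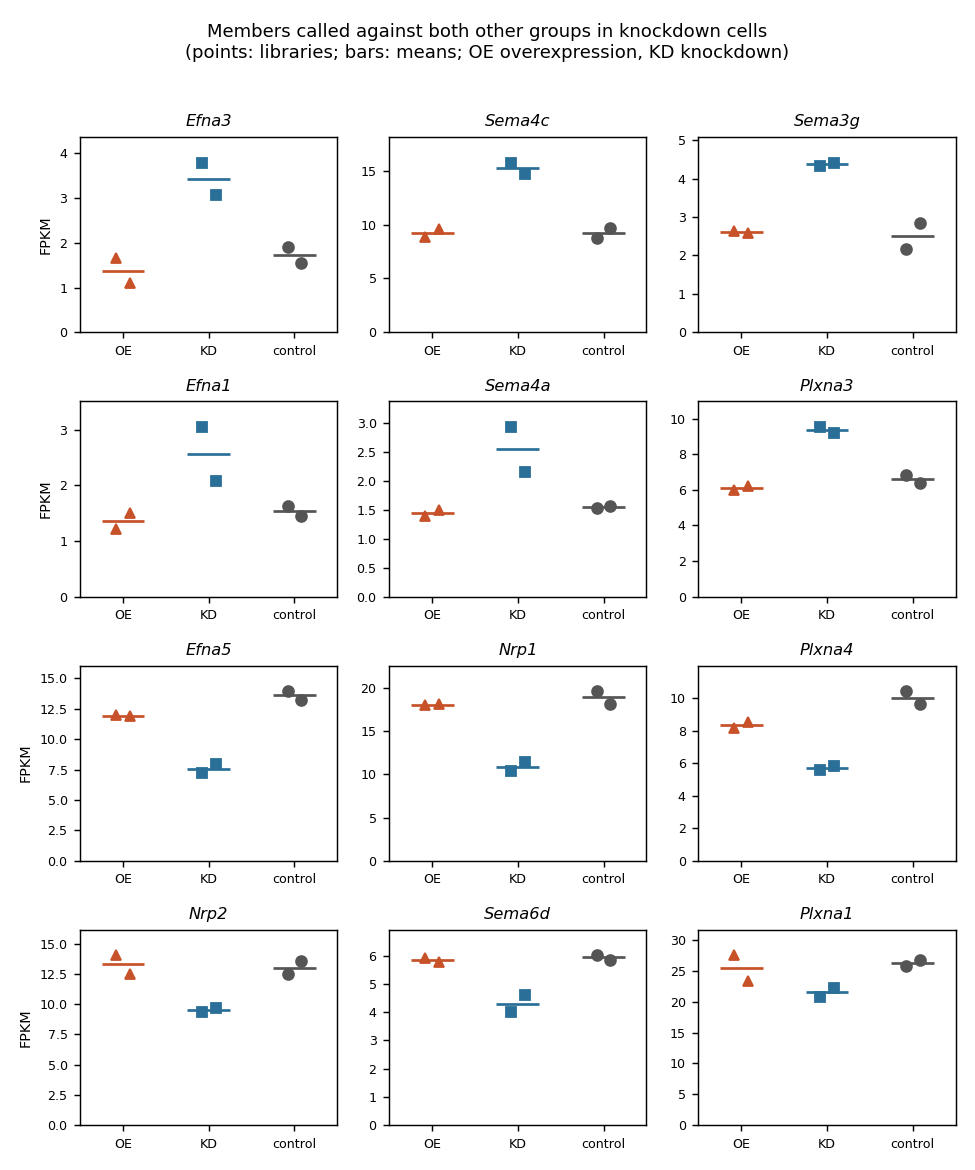
FPKM in each library of the 12 members called in knockdown cells against both other groups, with points for libraries and bars for means, ordered with the 6 higher members first. In each panel the knockdown libraries lie outside the range of the other 4, as for Plxna1, at 20.9 and 22.3 FPKM under knockdown against 23.4 FPKM in the nearest overexpression library.

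Genes of signal transduction, together with some co-receptors and proteases, were counted at the RNA level from lists drawn up from general knowledge. Of 36 tested genes of semaphorin and plexin transduction, 5 were higher and 13 lower in knockdown cells than in control cells, and of 34 tested genes of Eph and ephrin transduction, 2 were higher and 14 lower. As shares these were 13.9% and 36.1% of the first list and 5.88% and 41.2% of the second, beside 14.8% and 31.3% of all tested rows. Their medians were -0.11 and -0.12, against -0.07 over all tested rows, and with median log ratio scaling the counts were 6 higher and 11 lower, and 4 higher and 10 lower. Without control 1, control 2 or knockdown 1, the second list gave 1 higher and 8 to 9 lower, and without control 2 or knockdown 1 the first gave 3 higher. Rnd1, a small GTPase that binds plexins, rose by the largest amount in these lists, with 20.7 and 25.8 FPKM in knockdown cells, against 10.1 and 11.6 FPKM in control cells (log2 fold change 1.03 ± 0.10; limma, adjusted p = 0.000179). Lower in knockdown cells were Rac1 (-0.41 ± 0.05), a GTPase of the actin cytoskeleton, Dpysl3 (-0.38 ± 0.05), a collapsin response mediator, Chn2 (-0.45 ± 0.06), which encodes the Rac inhibitor beta-chimaerin, and Cdc42 (-0.37 ± 0.05), a GTPase of filopodia. Rasa1, a Ras inhibitor bound by EphB receptors, fell by 0.54 ± 0.06, and Ptpn11, which encodes the phosphatase SHP2, by 0.39 ± 0.05.

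Under overexpression 0 of the 36 semaphorin and plexin transducers were called against control by limma, beside 1.54% of all tested rows. An unadjusted p under 0.05 was found for 9 of them, and no share of all tested rows at that level is given here to set beside it. Of the 34 Eph and ephrin transducers, 1 was higher and 1 lower, and with median log ratio scaling 1 of the 36 was also called lower, while 1 of the 36 was called higher without knockdown 1 or knockdown 2. Vav2, an exchange factor recruited by activated Eph receptors, had 9.54 and 9.42 FPKM under overexpression, against 6.94 and 7.19 FPKM in control cells (0.38 ± 0.06; limma, adjusted p = 0.0249), and 9.20 and 9.78 FPKM under knockdown. Rasa1 had 22.4 and 20.4 FPKM under overexpression, against 28.2 and 26.8 FPKM in control cells (-0.35 ± 0.06; limma, adjusted p = 0.0413). Both calls were lost with no filter and with the replicate block (limma, adjusted p = 0.0563 to 0.142). They were also lost without control 1, control 2, overexpression 1 or overexpression 2. The call of Rasa1 was lost as well with quantile normalization and with no expression trend (limma, adjusted p = 0.066 and 0.0824). It held in 7 of 15 alternative fits, and that of Vav2 in 9. Between overexpressing and knockdown cells, 14 of the 36 were higher and 6 lower, and 14 of the 34 higher and 0 lower. Of all tested rows, 28.1% were higher and 12.4% lower, and with median log ratio scaling the lists gave 11 higher and 7 lower, and 11 higher and 0 lower. The first list gave 2 to 3 lower without overexpression 1, overexpression 2 or knockdown 1, and the second 9 higher without overexpression 2. In the second list the smallest adjusted p was that of Adam10, which encodes a protease that cleaves ephrins, with 23.8 and 21.8 FPKM under overexpression against 16.6 and 16.3 FPKM under knockdown (0.44 ± 0.06; limma, adjusted p = 0.00109).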

How the data were processed

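RNA was sequenced in 6 Neuro-2a libraries, prepared with a strand-preserving mRNA kit, per the labels' protocols. The values the authors deposited are FPKM, by gene symbol. The submitters' processing notes name the build mm10 and the tools HISAT2, Trimmomatic, HTSeq, Cufflinks and DESeq. Their versions, the annotation, any filter and whether strand was used in counting were not given in the sources used here. Because values are relative to each library's total, a change in abundant genes shifts all other values.

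Rows with a mean of at least 1 FPKM were tested with limma 3.58.1 in R 4.3.3 on log2(FPKM + 1), with a mean per group over all 6 libraries, an expression trend and 3 residual degrees of freedom. P-values were adjusted over 10721 rows by the Benjamini-Hochberg method. The fit was tried on simulated data with independent noise, in which only rows well above the filter were changed. That trial did not cover low members or small changes. Fold changes on this scale understate those of low genes. Members and lists were chosen with earlier results of these data known. Named were members of the families, and of each transduction list up to 4 called genes per comparison by smallest adjusted p. Other called genes of the lists are counted only.

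Alternatives were another pseudocount, filter, scaling or trend setting, fewer libraries and a replicate block. Absolute depth is unknown, and no counting intervals can be given. Of rows under 0.1 FPKM, 52% to 71.2% stood to control 1 in a ratio of whole numbers up to 4, within 0.03 on the log2 scale, as whole fragments would, with relative depths of 0.885 to 1.08. Coordinates come from GENCODE release M 21 (53 of 53 members matched) and RefSeq. Exons of Efna3, Epha10, Plxna1, Plxna4, Plxnb1 and Sema4c overlap antisense transcripts, whose reads cannot be told apart from theirs where the strand was not used.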

Additional observations from a re-analysis of the deposited data

How the results depend on the processing

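Counts of members and of the transduction lists were recomputed in 15 alternative fits, and members under 5 FPKM in 14, since the filter at 5 FPKM removes them. The 4 called members under 1 FPKM could be tested only without the filter, and were recomputed there with each library left out, which was chosen after seeing the data. For overexpression against control, 0 members were called in each of them. For knockdown against control, the number of members called higher went from 11 to 4 with a filter at 5 FPKM, and the number called lower from 7 to 8. In that fit 12 members were tested, and of all 7499 rows 942 were higher and 2959 lower. Fewer members were called higher in some fits with a library left out. The number called lower lay between 5 and 6 with each library left out. For overexpression against knockdown, the number called lower went from 7 to 2 with the filter at 5 FPKM and to 11 with median log ratio scaling, and lay between 6 and 9 with each library left out, and the number called higher between 5 and 6. The cause of the change with scaling was not tested. Of 18 calls under knockdown, 11 held in every alternative fit that could test the gene, and of 14 between overexpression and knockdown, 10. No called member changed sign in any of these fits. The labels give replicate numbers 1 and 2 in each group without saying that they mark a shared culture or day. Deviations of same-numbered libraries correlated at -0.211 to 0.00692. With the replicate number as a block, 11 members were higher and 6 lower under knockdown, and 5 higher and 7 lower in overexpression against knockdown. Over all tested rows, overexpression against control gave 74 higher and 91 lower calls, against 37 and 29 with the block, 9 and 0 with no filter, 53 and 44 with no expression trend, and 12 to 24 higher and 2 to 22 lower without control 1, control 2, overexpression 1 or overexpression 2. Absolute depth is unknown, which limits statements on members under 1 FPKM.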
